A study of Mus musculus with 173 samples.

Results

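Among 168 C and N libraries of adult mouse dentate gyrus, 4 were high in genes of young neurons, namely C131, C133, N8 and N9, and 23 cycling C libraries were set against them. Each library is the RNA of 1 cell. A library was put on the neuronal side when the mean log2(TPM + 1) of 13 neuronal genes was at least 4. A C library was put on the cycling side when the mean of 6 proliferation genes was at least 3 and it was not on the neuronal side. TPM is a share of transcripts corrected for transcript length and scaled to the same total in every library. Both sides were thus chosen by their measured values, so the genes of the rule are given only as a description. The other C libraries met neither threshold. The table holds 172 libraries in all, including 4 of a title class R that the rule leaves out. By the mean of the 13 neuronal genes, R3 at 4.99 and R2 at 4.19 would also have reached 4. R1 at 3.48 and R4 at 2.08 would not.

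All libraries came from the hippocampal dentate gyrus of C57BL/6 mice aged 8 to 12 weeks, with no treatment named. The neuronal side holds 2 C and 2 N libraries, and the cycling side holds C libraries alone. The letters of the title classes are not explained in the labels. A row for cyan fluorescent protein (eCFP) shows that a reporter sequence was part of the reference, but the labels name neither the transgene nor the promoter that drives it. They also name no animal, so cells of 1 side may share an animal and each side counts as 1 sample. No test was possible, no p-value is given, and every SD below is between libraries. The question of the study was how the transcriptomes of quiescent stem cells of this region and of their offspring follow each other.

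The dentate gyrus keeps neural stem cells that make granule neurons in adult life. A stem cell that becomes active gives rise to dividing intermediate progenitors, whose daughters leave the cell cycle as neuroblasts and switch on genes of the neuronal cytoskeleton, of axon growth and then of synapses. Dcx and Tubb3 (microtubule proteins), Neurod1 (a transcription factor of the granule lineage) and Igfbpl1 are common markers of the neuroblast step. Cajal-Retzius cells are another neuron type of the hippocampus, early-born cells that secrete reelin.

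The 250 bases before the annotated start are shown for 2 genes that were higher on the neuronal side and 2 that were lower. Rab3a separated the sides without overlap. Among Dcx, Tubb3, Neurod1 and Igfbpl1, only Tubb3 was at 1 TPM or above in all 4 libraries. Cdca8 was among the lowest mitotic genes, and Ccnb1 is the mitotic cyclin of the selection rule. The sequences are from RefSeq on GRCm38.p6, on the strand of the gene, 5′ to 3′. They lie at chr8:70754453-70754702 for Rab3a (plus strand), chr8:123411303-123411552 for Tubb3 (plus strand), chr4:124936918-124937167 for Cdca8 (minus strand) and chr13:100786487-100786736 for Ccnb1 (minus strand). Capitals mark CCAAT, the CCAAT box found in many promoters of cell cycle genes, and the E-box CAGATG, a motif of proneural factors, on either strand, so that ATTGG and CATCTG are also in capitals. A second E-box, CAGCTG, was searched too and is in none of the 4.
Rab3a: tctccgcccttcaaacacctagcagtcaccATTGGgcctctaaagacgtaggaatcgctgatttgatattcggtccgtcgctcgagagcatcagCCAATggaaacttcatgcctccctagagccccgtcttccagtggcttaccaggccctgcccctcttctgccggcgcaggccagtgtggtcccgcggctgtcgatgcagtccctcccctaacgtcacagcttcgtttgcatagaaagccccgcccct
Tubb3: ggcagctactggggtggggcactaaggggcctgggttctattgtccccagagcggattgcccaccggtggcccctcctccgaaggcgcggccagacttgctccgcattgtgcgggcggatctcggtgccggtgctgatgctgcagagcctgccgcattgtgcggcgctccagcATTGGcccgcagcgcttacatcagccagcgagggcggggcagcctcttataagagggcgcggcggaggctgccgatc
Cdca8: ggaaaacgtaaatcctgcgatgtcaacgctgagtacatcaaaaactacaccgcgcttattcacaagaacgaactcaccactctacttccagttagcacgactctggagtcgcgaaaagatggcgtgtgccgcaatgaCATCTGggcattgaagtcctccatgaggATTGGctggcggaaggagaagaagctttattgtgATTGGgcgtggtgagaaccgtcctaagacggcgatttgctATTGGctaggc
Ccnb1: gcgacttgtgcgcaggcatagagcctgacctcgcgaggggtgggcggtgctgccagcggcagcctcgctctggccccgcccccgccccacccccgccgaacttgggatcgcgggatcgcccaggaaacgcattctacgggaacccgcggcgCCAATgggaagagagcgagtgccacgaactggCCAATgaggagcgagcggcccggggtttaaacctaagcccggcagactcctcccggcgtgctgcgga
Cdca8 held 3 matches to CCAAT and 1 to CAGATG, Ccnb1 held 2 to CCAAT, Rab3a held 2 and Tubb3 held 1. Of the 33 genes of the G2 and mitosis list, 28 had an entry in the promoter table, and 23 of these (82.1%) held CCAAT, against 34.5% of all 27025 promoters of the table. At least 2 matches were found in 53.6% of those 28 promoters, against 10.5% of all. Over the genes lower on the neuronal side by the threshold used below, 51.4% of 214 promoters held CCAAT and 28.04% held at least 2 matches. A set is read only where at least 80% of its genes had an entry. The genes higher on the neuronal side, with 76.9%, fell short and their count is void. All genes compared fell just short, with 79.8%, and their 37.1% with CCAAT and 13.9% with at least 2 matches are given only as the nearest background of the lower genes. CAGATG was in 14.3% of the mitotic promoters and in 14.5% of all, and CAGCTG was in 7.14% and 12.8%. A match describes these letters in this window and says nothing of a factor bound there.

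The mean of the 13 neuronal genes was 6.20 in C133, 5.12 in N8, 4.73 in C131 and 4.35 in N9. Cycling C libraries had a lowest mean of 0.363, a median of 1.81 and a highest of 3.20. No other C or N library reached 4, and the nearest of them outside the cycling side were N13 at 3.71, C123 at 3.66, N19 at 3.55, C138 at 3.22, N18 at 3.20 and C103 at 3.15. The mean of the 6 proliferation genes was 0.714 to 1.96 in the 4 neuronal-side libraries, while the cycling C libraries had a lowest mean of 3.07, a median of 6.61 and a highest of 10.20. Just inside that threshold stood C77 at 3.35, C61 at 3.28 and C80 at 3.07, and just outside it C120 at 2.82, C20 at 2.63 and C45 at 2.38. The neuronal side is therefore small and its upper members are far from the threshold, whereas the cycling side runs without a gap into libraries just below it.

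**Figure D1:**
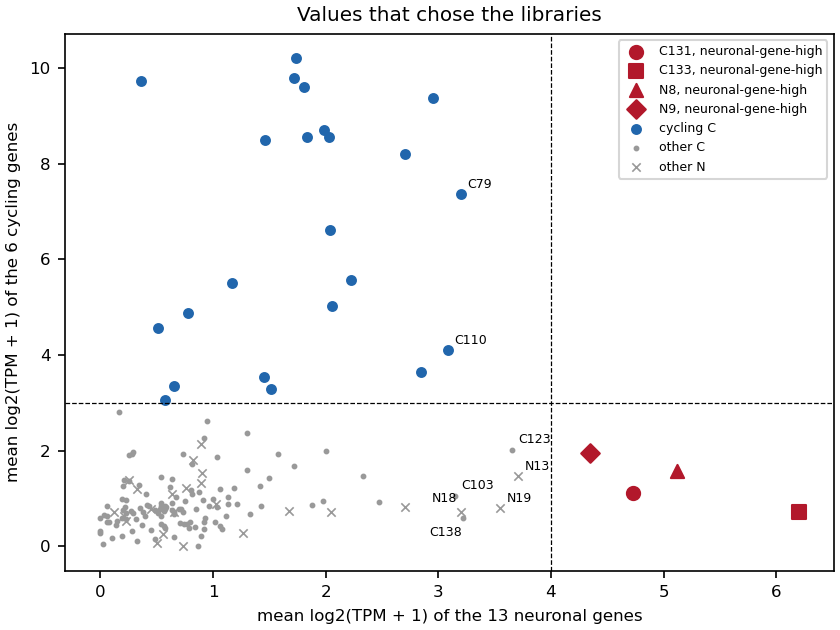
Each point is 1 C or N library, with the mean log2(TPM + 1) of the 13 neuronal genes on the x axis and of the 6 cycling genes on the y axis; dashed lines are the thresholds of 4 and 3. The 4 neuronal-side libraries (red) lie right of the vertical line with cycling means of 0.714 to 1.96, and the 23 cycling C libraries (blue) lie above the horizontal line.

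The name neuroblast-like held for C131 alone when all 4 markers of the label were read together. Tubb3 was 2054 TPM in C131, 529 in C133, 1094 in N8 and 1265 in N9, and cycling C libraries had a lowest value of 0, a median of 73.7 and a highest of 964. Neurod1 was 3125 TPM in C131, 309.8 in C133, 756 in N8 and 0.99 in N9, against a cycling C median of 0.37 and a highest value of 194. Dcx was 220.4 TPM in C131, 0 in C133, 172 in N8 and 0.81 in N9, and the highest cycling C value was 60.8. Only C131 and N8 carried Dcx above every cycling C library. Igfbpl1 was 353 TPM in C131, 0 in C133, 1.47 in N8 and 0 in N9, whereas 9 of 23 cycling C libraries were at 1 TPM or above, with a highest value of 435. Because Dcx is at or near 0 in C133 and N9, the libraries are called by the rule, as the neuronal-gene-high libraries, and no cell type name is put on the group.

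The other genes of the rule were shared unevenly as well. Stmn2, a stathmin of growing axons, was listed at 0 in C131 and was 351 TPM in C133, 1519 in N8 and 832 in N9, with a highest cycling C value of 1.52. Gap43, a growth cone protein, was listed at 0 in C131 and was 458 TPM in C133, 1069 in N8 and 4082 in N9, with a highest cycling C value of 75.7. Calb2, the calcium-binding protein calretinin, was listed at 0 in C131 and was 176 TPM in C133, 471 in N8 and 57.4 in N9. These 3 genes were thus listed at 0 in the library with the most Neurod1 and Tubb3. Neurod6, a factor of cortical pyramidal neurons, was 230.1 TPM in C133 and listed at 0 in C131, N8 and N9. Elavl3, a neuronal RNA-binding protein, was seen in all 4 at 35.2 TPM in C131, 414 in C133, 13.2 in N8 and 149.8 in N9. Elavl4, Dpysl3 and Prox1 did not set the sides apart, with differences of 1.56, -0.48 and -1.39, and Elavl4 was at 1 TPM or above in 18 of 23 cycling C libraries. Prox1, the transcription factor of dentate granule cells, was at 0.91 TPM in N8 and listed at 0 in C131, C133 and N9, and 7 of 23 cycling C libraries had it at 1 TPM or above.

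Beyond the rule, the 4 libraries carried different sets of marker genes. The genes of this paragraph and the next that the naming rule did not take (Insm1, Nefl, Thy1, Trp73, Ndnf, Lhx1 and Lhx5) were chosen after their values were seen. C131 had the highest mean of the intermediate progenitor list among the 4, 4.72, within the cycling C range of 0.487 to 6.16 with its median of 3.45. Of the 10 markers 4 were listed at 0 in C131, and Sox11 made up most of their sum of 2837 TPM. Its Sox11, a transcription factor of immature neurons, was 1919 TPM, its Eomes (Tbr2, of intermediate progenitors) was 124.1 TPM and its Insm1 was 76.1 TPM. N8 came next, with a list mean of 2.72, Sox11 at 718 TPM and Eomes listed at 0. C133 stood at the other end, with a list mean of 0.524, Sox11 at 0.41 TPM and Eomes at 0.20 TPM. C133 had instead the highest mean of the mature neuron list, 6.26, against 2.90 to 3.39 in the other 3 and a cycling C range of 0.362 to 4.90. Its Snap25 was 3798 TPM, its neurofilament gene Nefl was 347 TPM and its surface protein Thy1 was 455 TPM. Nefl was listed at 0 in C131, N8 and N9, and Thy1 was at most 3.14 TPM in them.

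N9 carried the genes of Cajal-Retzius cells. The mean of that list was 5.25 in N9, 0.633 in N8, 0.148 in C133 and 0 in C131, and cycling C libraries reached at most 0.489. Reln, which encodes reelin, was 1351 TPM in N9, 12.9 in N8 and 0 in C131 and C133, with a highest cycling C value of 0.49. N9 also had Trp73 at 512 TPM, Ndnf at 1754 TPM, Nhlh2 at 1262 TPM and Tbr1 at 255 TPM, while Lhx1 and Lhx5 were listed at 0. The libraries N13, N18 and N19, just below the neuronal threshold, had list means of 7.21, 6.27 and 5.98, with Reln at 1891, 661 and 397 TPM and Lhx1 at 412, 354 and 57.2 TPM. Of the 168 C and N libraries, these 3 and N9 were the 4 with a mean of at least 4, and the next was at 3.23. The 3 C libraries outside the cycling side that came nearest below the threshold had other values: C123 and C138 had Neurod1 at 500 and 1947 TPM and Reln at 0 and 0.48 TPM, and C103 had Neurod1 at 115.5 TPM and Reln at 0.79 TPM. The intermediate progenitor list mean was 5.48 in C123 and 4.85 in C138, both above that of C131.

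**Figure D2:**
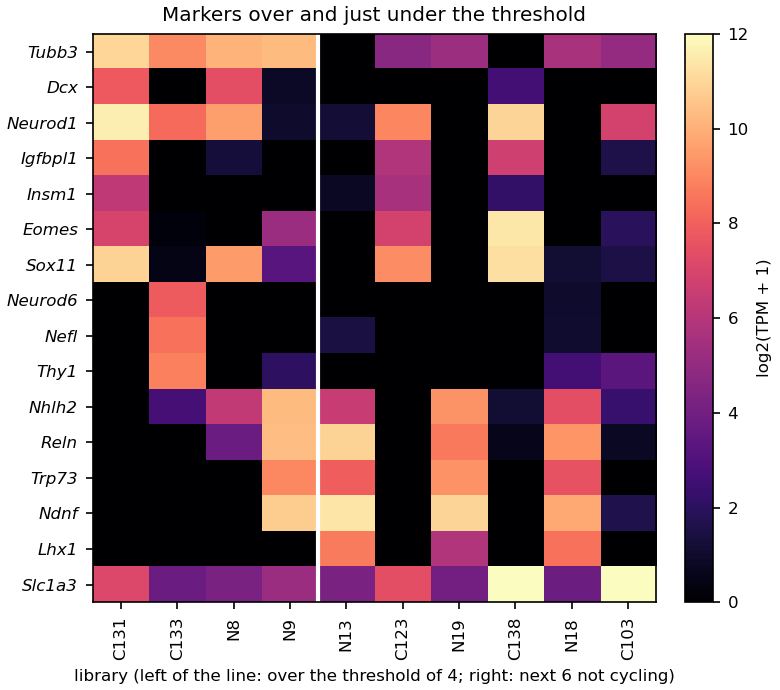
Log2(TPM + 1) of 16 marker genes (rows) in the 4 libraries over the neuronal threshold (left of the white line) and the next 6 that are not cycling C (right). Tubb3 is high in all 4 on the left, Neurod1, Insm1 and Eomes are all seen in C131, the Neurod6 (a gene of the rule), Nefl and Thy1 block is in C133, and the Reln, Trp73 and Ndnf block is shared by N9, N13, N19 and N18.

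Markers of oligodendrocyte precursors, endothelial cells and microglia were low on the neuronal side. Of the 8 oligodendrocyte precursor markers, 4 to 7 were listed at 0 in each library and their summed TPM was 0.21 to 4.05, against 0 to 4307 in cycling C libraries. The 6 endothelial markers summed to 0 to 9.88 TPM and the 8 microglial markers to 1.25 to 12.6 TPM, against 0 to 1189 and 0.53 to 18.1 TPM in cycling C libraries. The 8 markers of mature granule neurons summed to 0 to 39.5 TPM and the 11 of inhibitory neurons to 0 to 13.8 TPM. Among the 6 mural markers the sum was 567 TPM in N9, all from Rgs5 (a regulator of G protein signalling), and 0.50 to 42.1 TPM in the other 3, against 0 to 137.1 TPM in cycling C libraries, so N9 lay above that range. The mean of the mural list was 2.10 in N8 and 1.53 in N9, against a cycling C median of 0.804. On the cycling side, 3 libraries (C80, C113 and C132) had an oligodendrocyte precursor mean of at least 4 and C140 had a mature neuron mean of 4.90. Doublets were not called, and the part of these libraries in the results was not tested beyond leaving them out.

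The eCFP row was lower on the neuronal side. It was 2183 TPM in C131, 1568 in C133, 82.2 in N8 and 78.1 in N9, against a lowest value of 709.8, a median of 5037 and a highest of 14339 TPM in cycling C libraries. The 2 N libraries lay below every cycling C library, and the 2 C libraries lay within the range of the cycling side. The C libraries on neither side had a median of 9096 TPM and the 26 N libraries, N8 and N9 included, one of 44.6 TPM. The difference of mean log2 values, -3.72, became -2.98 without N8, -2.96 without N9 and -1.47 with C131 and C133 alone on the neuronal side. The number of genes at 1 TPM or above was 3378 in C131, 5684 in C133, 4672 in N8 and 4830 in N9, against 2465 to 5594 with a median of 4009 in cycling C libraries, so N8 and N9 lay within that range, C133 above it and C131 below its median.

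**Figure D3:**
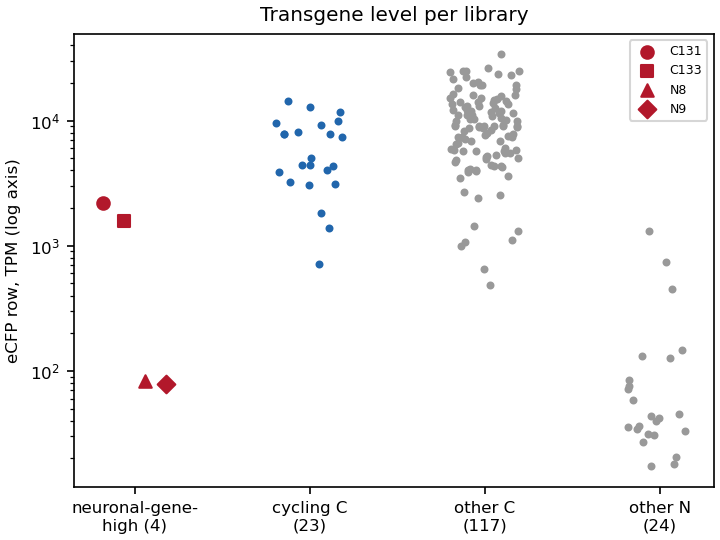
TPM of the eCFP row (log axis) in each neuronal-side, cycling C, other C and other N library, with 1 point per library. C131 (2183) and C133 (1568) lie among the lower C libraries, and N8 (82.2) and N9 (78.1) lie below all 23 cycling C libraries.

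Across the whole table, 11989 genes outside the rule reached 1 TPM in at least 5% of libraries and were compared. A gene was called when the 2 means of log2(TPM + 1) differed by at least 3, which is 8-fold on that scale and understates the change of low genes. On the neuronal side 489 genes (4.08%) were higher and 263 (2.19%) were lower, and the median difference over all genes was 0. Since both sides were chosen by values of these same libraries, the counts describe them and support nothing further. With a size factor for each library the counts were 326 higher and 275 lower. Leaving out C133 and N9, whose markers depart from the label, gave 777 higher and 458 lower. Of the 489 higher genes, 175 were at 1 TPM or above in all 4 libraries, 184 in 3 and 130 in 2, and 166 were called whichever library was left out. Of the 263 lower genes, 206 were called whichever library was left out. Among the 263, 95 were under 1 TPM in all 4 libraries and 83 reached it in only 1. Omitting a library at the floor moves such means little, so the counts of 166 and 206 do not compare the 2 sets. Cycling C libraries were not each left out in turn.

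A stricter view asks for no overlap between the sides. Only 5 genes (0.0417%) were higher in all 4 libraries than in all 23 cycling C libraries, namely Rab3a, Mllt11, Ralgds, A230057D06Rik and Car10, and 1 (0.00834%) was lower, namely Pbk. Ralgds, A230057D06Rik and Car10 are named for this count, after their values were seen. Ralgds, an activator of Ral GTPases, was 269.6 TPM in C131, 4.33 in C133, 311 in N8 and 0.65 in N9, with a highest cycling C value of 0.38. Car10, a protein of the carbonic anhydrase family, was 0.72 to 31.4 TPM against at most 0.34, and A230057D06Rik was 2.15 to 131.2 TPM against at most 1.03. These 3 separate the sides at low levels in at least 1 library, so their separation turns on values near 1 TPM. Leaving out C131, C133, N8 or N9 raised the count of higher genes without overlap to 29, 12, 16 and 11, and without both C133 and N9 it was 58.

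Synaptic vesicle genes made up the clearest neuronal group, which the choice of the neuronal side through 13 neuronal genes favours. Of 21 measured members, 9 were higher by at least 3 and 0 lower, where 4.08% of all genes compared were higher and 2.19% lower. The median difference was 2.82 against 0 over all genes. Rab3a, a small GTPase of synaptic vesicles, was 413 TPM in C131, 180 in C133, 898 in N8 and 739 in N9, while cycling C libraries had a median of 0 and a highest value of 1.98. Mean log2(TPM + 1) of Rab3a was 8.88 ± 1.04 in the 4 libraries and 0.24 ± 0.49 in the 23 cycling C libraries (SD), a difference of 8.64. Every neuronal-side library was thus far above every cycling C library, and the promoter of this gene is printed above. Libraries just below the neuronal threshold carried it in part. On the log2 scale Rab3a was 9.74 in N19, 9.40 in N18 and 6.70 in C103, and 0 in N13, C123 and C138. Snap25, a SNARE protein of vesicle fusion, was 848 TPM in C131, 3798 in C133, 524 in N8 and 294 in N9, against a cycling C median of 1.84 and a highest value of 301. Only 1 cycling C library lay above the lowest neuronal-side library, and the difference was 7.88. Just below the neuronal threshold, log2 values of Snap25 were 8.91 to 12.34 in N13, C123, N19, N18 and C103, and 0 in C138.

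The other synaptic vesicle members were less even. Among those past the threshold were Syt1, Syt4, Vamp2, Scg2 and Chgb, of which the naming rule took none. Syt1, the calcium sensor of release, was listed at 0 in C131 and was 264 TPM in C133, 112.3 in N8 and 507 in N9, with 1 of 23 cycling C libraries at 1 TPM or above. Scg2, a granule protein of secretory vesicles, was 706 TPM in C133, 42.8 in N8 and 0 in C131 and N9, and its difference of 3.02 became 1.11 without C133 and 2.45 without N8, and Syt4 went under 3 without C133 (2.45) or N9 (2.04). The list count was 7 without C133, 10 without C131 or N9, and 8 without both C133 and N9. The mean of the list was 2.49 in C131, 5.17 in C133, 4.04 in N8 and 3.14 in N9, against 0.404 to 2.89 with a median of 1.25 in cycling C libraries, so 3 of the 4 lay above the highest cycling C library, C140.

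Transmitter receptors came with them in part. Of 19 measured members of the receptor and chloride transport list, 6 were higher by at least 3 and 0 lower, with a median difference of 1.25, where 4.08% of all genes compared were higher and 2.19% lower. Gria1, an AMPA receptor subunit, was listed at 0 in C131 and was 158 TPM in C133, 438 in N8 and 181 in N9, against a cycling C median of 0.24 and a highest value of 92.97, a difference of 4.67. Gria2, another AMPA receptor subunit, named after its values were seen, was even across the side at 333 TPM in C131, 487 in C133, 452 in N8 and 499 in N9, against a cycling C median of 52.6 and a highest value of 703. The count of 6 was 3 without C133, 2 without N8 and 5 without both C133 and N9. The chloride carriers, whose balance sets the sign of the GABA response, did not pass the threshold. Slc12a5 (Kcc2) was 8.97 TPM in C133, 5.43 in N8 and 0 in C131 and N9, with 1 of 23 cycling C libraries at 1 TPM or above and a difference of 1.25. Slc12a2 (Nkcc1) was at most 0.11 TPM in all 4, with 10 of 23 cycling C libraries at 1 TPM or above, a cycling C highest value of 281.8 TPM and a difference of -2.12. Of the 13 ion channel genes 0 were called in either direction, with Scn3a at a difference of 2.98 and Scn2a1 at 2.45.

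Tubulins and microtubule proteins were called in part, and reads shared between tubulin genes make single tubulins uncertain. Of 28 members, 6 were higher by at least 3 and 1 (Tbcb, a tubulin folding cofactor) was lower, with a median difference of 0.71. The shares over all genes compared were 4.08% and 2.19%. Tubb4a, a beta tubulin, was 118.6 TPM in C131, 491 in C133, 289.9 in N8 and 803 in N9, against a cycling C median of 2.01 and a highest value of 591. Tubb2a, another beta tubulin, was 1220.1 TPM in C131, 1705 in C133, 2208 in N8 and 951 in N9, against a cycling C median of 5.42 and a highest value of 1785. Stmn3, a neuronal stathmin, was 695 TPM in C131, 2083 in C133, 328 in N8 and 924 in N9, against a cycling C median of 7.28 and a highest value of 1316. The differences were 6.33, 6.13 and 5.66, and 2, 3 and 4 cycling C libraries lay above the lowest neuronal-side value of Tubb4a, Tubb2a and Stmn3. Just below the neuronal threshold, log2 values of Tubb4a were 11.08 in N18, 10.21 in N13 and 6.18 in C103, and 1.28 to 2.81 in C123, N19 and C138. Those of Stmn3 were 10.79 in N18, 10.04 in N19, 6.02 in C103 and 5.11 in N13, and 0 in C123 and C138. Stmn1 and Tubb5 did not follow Tubb4a, Tubb2a and Stmn3. Stmn1, a stathmin of dividing and young cells, was 14601 TPM in C131, 1368.0 in C133, 7286 in N8 and 8658 in N9, against a cycling C median of 6769, a difference of 0.29. Tubb5 was 1033 TPM in C131, 783 in C133, 339 in N8 and 592.5 in N9, against a cycling C median of 1812, a difference of -0.98. In the C libraries on neither side Stmn1 and Tubb5 had medians of 199.9 and 19.6 TPM. All 4 neuronal-side libraries and the cycling C medians were above these, but the lowest cycling C values, 39.3 and 9.9 TPM, were not.

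Genes of axon growth and cell migration varied between the 4 libraries. In the growth cone and axon guidance list 3 of 27 members were higher and 0 lower, with a median difference of 0.998, and in the adhesion and migration list 1 of 21 was higher and 0 lower, with a median of 0.47. Over all genes compared 4.08% were higher, so the share of the adhesion list is near the background. Basp1, a membrane protein of growth cones, was 2.65 TPM in C131, 371 in C133, 92.7 in N8 and 732 in N9, a difference of 4.72. Crmp1, a collapsin response mediator, was 45.96 TPM in C131, 44.98 in C133, 0 in N8 and 681 in N9, and its difference of 3.77 became 2.34 without N9. Dcc, a netrin receptor, was 275 TPM in C131 and 309 in N9 and at most 0.07 TPM in the other 2, and its difference of 3.08 became 1.75 without C131 and 1.69 without N9. Cdk5r1 (p35), the activator of Cdk5, was listed at 0 in C131 and was 28.5 TPM in C133, 54.7 in N8 and 86.02 in N9, and its difference of 3.49 became 2.98 without N8 and 2.77 without N9. Basp1 alone of these 4 held in every such omission. The median of the adhesion and migration list turned to -0.16 without C133 and -0.10 without N8.

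**Figure D4:**
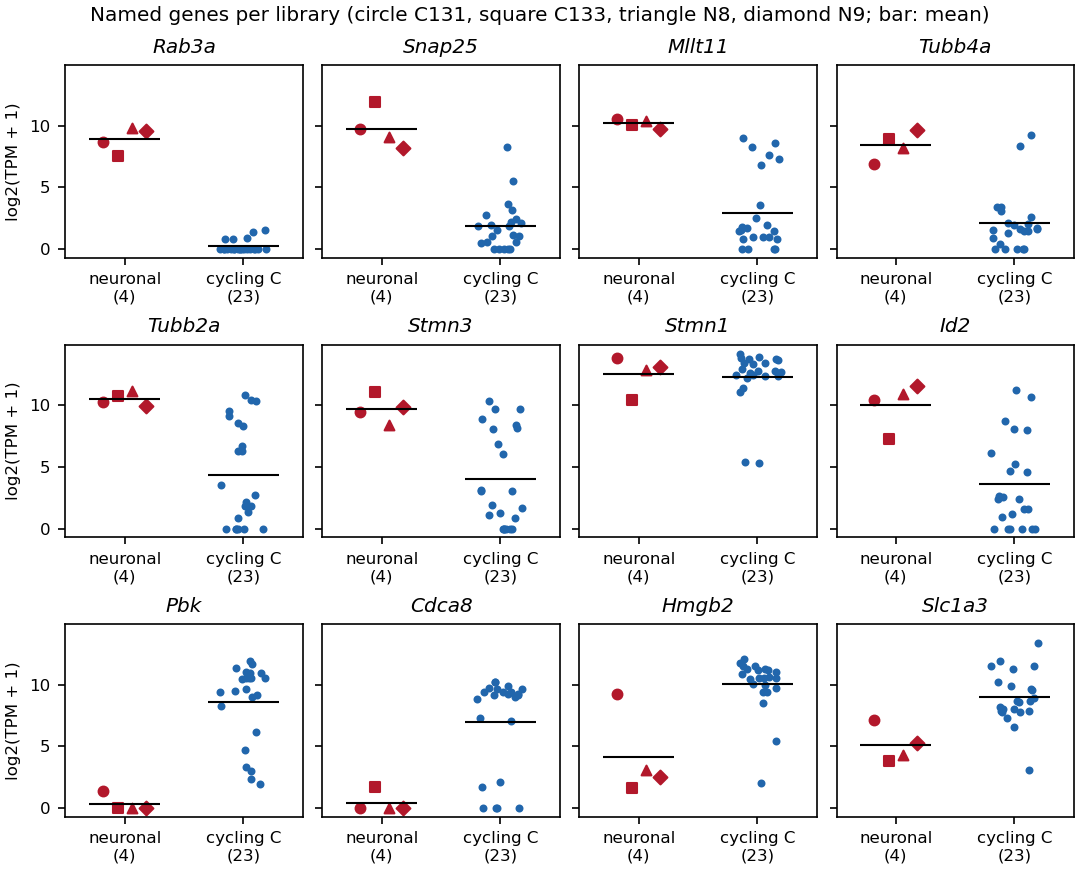
Log2(TPM + 1) of 12 genes in each library of the neuronal side (red, left; circle C131, square C133, triangle N8, diamond N9) and of the cycling C side (blue, right); horizontal bars are means. Rab3a and Mllt11 are separated upward and Pbk downward, Snap25 and Tubb4a overlap through 1 and 2 cycling C libraries, and Stmn1 overlaps throughout.

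Transcription factors and RNA-binding proteins gave few calls, where 4.08% of all genes compared were higher and 2.19% lower. Of 23 lineage factors, Tbr1 and Nhlh2 were higher by at least 3 and 0 were lower, with a median of 0.09 that turned to -0.13 with size factors. Without C131 the median was -0.66, with 4 higher and 1 lower. Nhlh2, a factor of postmitotic neurons, was 0 TPM in C131, 5.58 in C133, 81.1 in N8 and 1262 in N9, and its difference of 4.65 became 2.83 without N9. Tbr1, a factor of glutamatergic neurons, was 95.4 TPM in C131, 255 in N9 and 0 in C133 and N8, and its difference of 3.61 became 2.63 without C131 and 2.16 without N9. Sox11 and Eomes had differences of -0.03 and 0.15, and each ranged widely: Sox11 ran from 0.41 to 1919 TPM on the neuronal side and from 0.14 to 1427 TPM on the cycling side, and Eomes from 0 to 124.1 TPM and from 0 to 573 TPM. Of 19 RNA-binding and splicing regulators, Celf4 and Rbfox2 were higher and Qk lower, and the median of 0.14 turned to -0.15 with size factors. Qk (quaking), an RNA-binding protein of glia and their precursors, was 1.20 TPM in C131, 3.28 in C133, 4.17 in N8 and 6.80 in N9, against a lowest value of 1.26, a median of 137.4 and a highest of 1524 TPM in cycling C libraries, a difference of -4.70. Celf4, a neuronal RNA-binding protein, was 2.06 TPM in C131, 282 in C133, 10.5 in N8 and 222 in N9, a difference of 4.33. The difference of Rbfox2, 3.38, became 2.81 without C133 and 2.48 without N9. Ptbp1 and Ptbp2, splicing repressors that change over in neuronal differentiation, had differences of 0.70 and -1.05. Ptbp1 was 606 TPM in C131 and listed at 0 in C133, N8 and N9, and Ptbp2 was 117.2 TPM in C131, 283 in C133, 1.15 in N8 and 0 in N9.

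Genes of G2 and mitosis were low in all 4 libraries, which the choice of a cycling side through 6 other proliferation genes favours. Of 33 members outside the rule, 27 were lower by at least 3, where 2.19% of all genes compared were lower. Of the 33, 0 were higher and 0 had a positive difference, with a median of -3.98. The count stayed between 27 and 28 with any 1 neuronal-side library left out. Pbk, a mitotic kinase, was 1.55 TPM in C131 and 0 in C133, N8 and N9, against a lowest value of 2.89, a median of 819.8 and a highest of 3919 TPM in cycling C libraries, a difference of -8.23. Cdca8 (borealin, of the chromosomal passenger complex) was 2.19 TPM in C133 and 0 in the other 3, against a cycling C median of 586 and a highest value of 1205, a difference of -6.56. Cdca3 was 1.78 TPM in C131, 1.24 in C133 and 0 in N8 and N9, against a cycling C median of 717, a difference of -6.53. The neuronal-side values of these genes thus stood at or near 0, but 4 and 3 of the 23 cycling C libraries were also under 1 TPM for Cdca8 and Cdca3. The list mean was 0.629 to 0.921 in the 4 libraries, below the lowest cycling C library at 0.944. The C libraries on neither side had a median of 0.578.

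Some genes of DNA replication were lower on the neuronal side. Of 29 members, 10 were lower by at least 3 and 0 higher, with a median of -2.50. The shares over all genes compared were 2.19% lower and 4.08% higher. The list mean was 1.10 in C131, 1.64 in C133, 1.41 in N8 and 1.40 in N9, against 0.676 to 6.50 with a median of 4.24 in cycling C libraries, so all 4 lay in the lower part of the cycling range. The median of the C libraries on neither side was 0.835. Rrm2, a subunit of ribonucleotide reductase, and Rfc4, of the clamp loader, were listed at 0 in all 4 libraries, against cycling C medians of 353 and 294 TPM. Mcm7, of the replicative helicase, was 1.72 TPM in N8 and 0 in the other 3, against a cycling C median of 39.96 and a highest value of 979. Mcm6, named after its values were seen, was 210.5 TPM in C131, 0 in C133 and N8 and 3.31 in N9, against a cycling C median of 196, so C131 stood within the cycling range for this gene. The cycling side itself was mixed: 14 of its 23 libraries had a G2 and mitosis mean of at least 3, 15 had an S phase mean of at least 3, 9 had both and 3 (C77, C110 and C132) had neither. Among G1 genes Cdk5 and Cdkn1c were higher and Ccnd2, Cdk2, Cdk4 and Cdkn2c lower, of 22. Cdk4, the kinase of cyclin D, was 1717 TPM in C131, 90.1 in C133 and 0 in N8 and N9, against a cycling C median of 1003, and Cdk5, a kinase of postmitotic neurons, was 48.6 TPM in C131, 317 in C133, 262.0 in N8 and 1.26 in N9, against a cycling C median of 0. Ccnd2 (cyclin D2) was 277 TPM in C131, 1.83 in C133, 77.8 in N8 and 1.91 in N9, against a cycling C median of 669, and its difference of -3.58 became -2.63 without C133 and -2.64 without N9. Cdkn2c (the CDK inhibitor p18) had a difference of -3.97, and Cdkn1c (the CDK inhibitor p57), seen only in C133 at 52.3 TPM and N9 at 647 TPM, one of 3.71 that became 1.85 without N9.

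Some chromatin and splicing genes were lower on the neuronal side than in cycling C libraries, while 2.19% of all genes compared were lower. In the list of histones and high mobility group proteins 5 of 27 were lower by at least 3 and 0 higher, with a median of -1.37, while 9 had a positive difference. On this list and on that of the splicing machinery no neuronal-side library lay below the cycling C range. The list means on the neuronal side were 4.92 to 6.38 and 4.68 to 5.93. The C libraries on neither side had medians of 4.27 and 4.43, so every neuronal-side library stood above these. Hmgb2, a chromatin protein abundant in dividing cells, was 609 TPM in C131, 2.07 in C133, 7.48 in N8 and 4.59 in N9, against a lowest value of 3.10, a median of 1522 and a highest of 4260.1 TPM in cycling C libraries, a difference of -5.93. Hmgn2 was 6175 TPM in C131, 847 in C133, 70.1 in N8 and 1214 in N9, against a cycling C median of 19699, and its difference of -3.94 became -2.76 without N8. Anp32e, a histone chaperone, was 55.1 TPM in C131 and at most 0.70 TPM in the other 3, against a cycling C median of 94.9, a difference of -4.30. In the splicing machinery list 5 of 24 were lower and 0 higher, with a median of -1.02. Snrpg, an Sm protein of the spliceosome, was 197.5 TPM in C131 and 0 in the other 3, against a cycling C median of 5679 TPM, a difference of -8.21. Snrpe, another Sm protein, was 763 TPM in C131 and 0 in the other 3, against a cycling C median of 526, and Hnrnpu, a nuclear RNA-binding protein, was 103.7 TPM in C133 and at most 2.52 TPM in the other 3, against 484. In the C libraries on neither side the medians were 0 TPM for Snrpg and Snrpe, 4.10 for Hmgb2 and 1.24 for Anp32e. They were 1217 TPM for Hmgn2 and 219.8 for Hnrnpu.

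Neural stem cell genes were low as a group. Of 14 members 5 were lower by at least 3 (Slc1a3, Hopx, Sox9, Vim and Fabp7), where 2.19% of all genes compared were lower. Of the 14, 0 had a positive difference, with a median of -2.21. The list mean was 2.39 in C131, 1.90 in C133, 2.42 in N8 and 2.21 in N9, against 3.08 to 7.91 with a median of 4.40 in cycling C libraries and a median of 6.52 in the C libraries on neither side. All 4 lay below every cycling C library. Hopx, of quiescent stem cells, was 2.45 TPM in C133 and 0 in the other 3, against a cycling C median of 3.86, and its difference of -3.15 became -2.998, just short of the threshold, without C131, N8 or N9. Slc1a3, a glial glutamate transporter, was 143 TPM in C131, 13.3 in C133, 18.8 in N8 and 36.8 in N9, against a lowest value of 7.39, a median of 404 and a highest of 10578 TPM in cycling C libraries, a difference of -3.83. Fabp7, a fatty acid binding protein of radial glia, was 542 TPM in C131, 29.98 in C133, 0 in N8 and 43.8 in N9, against a cycling C median of 1351, a difference of -4.89. Sox2 and Nes had differences of -2.24 and -1.03; Nes (nestin) was listed at 0 in all 4 libraries, but its cycling C median was only 0.13 TPM. Of the 10 intermediate progenitor genes only Ccnd2 passed the threshold, as lower, and of the 12 astrocyte genes 0 did, with medians of -0.82 and -0.71.

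**Figure D5:**
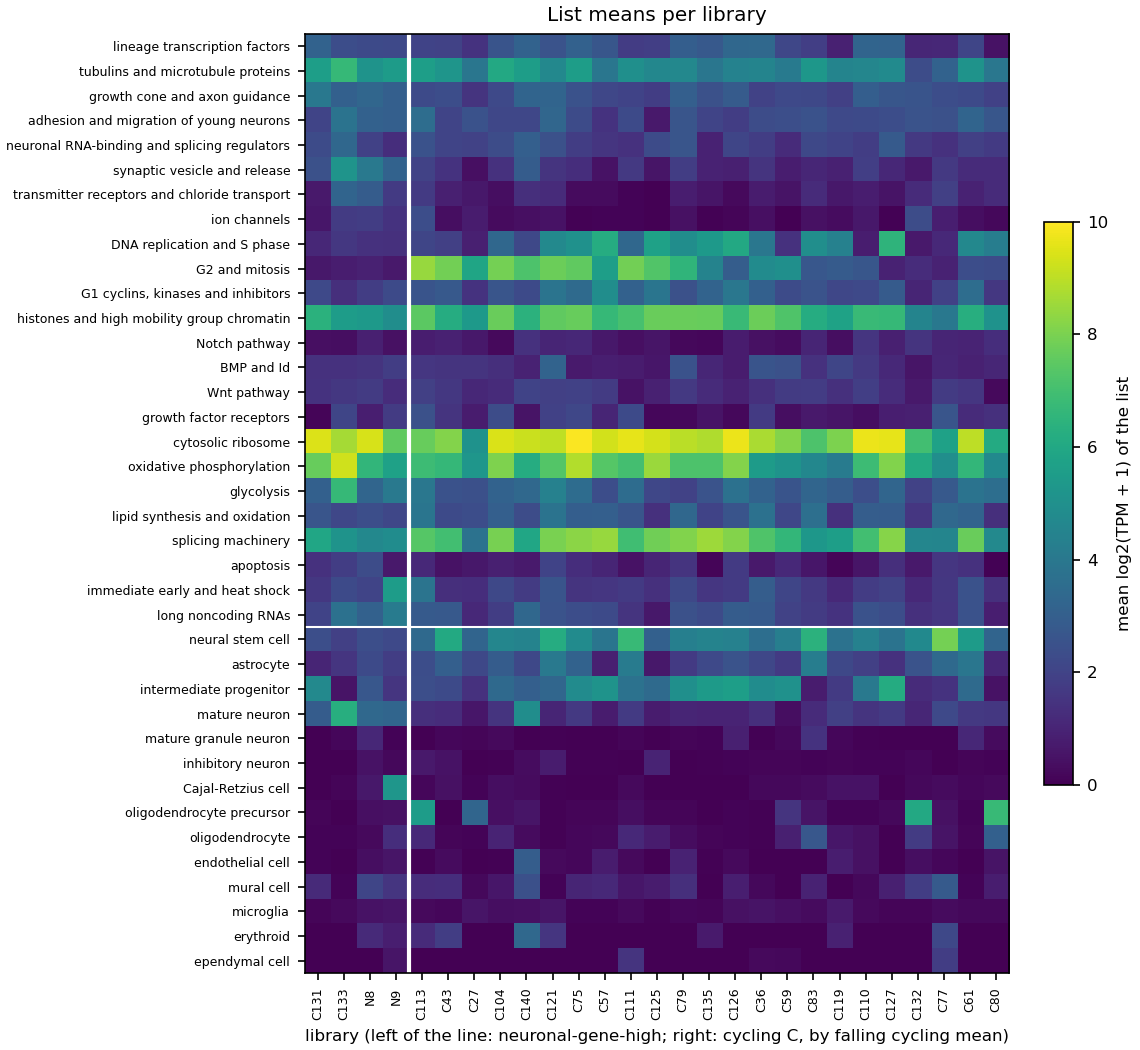
Mean log2(TPM + 1) of each of 38 gene lists (rows; processes above the thin white line, cell types below it) in the 4 neuronal-side libraries (left of the thick line) and the 23 cycling C libraries ordered by falling cycling mean. The G2 and mitosis and neural stem cell rows are darker in all 4, the synaptic vesicle row is brighter in C133, N8 and N9, and the Cajal-Retzius row is bright in N9.

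Metabolic lists gave few calls, where 4.08% of all genes compared were higher and 2.19% lower. Of 18 glycolysis genes Eno1, Eno2 and Aldoa were higher and 0 lower; Eno1, an enolase, was 515 TPM in C131, 1467 in C133, 1115 in N8 and 1176 in N9, against a cycling C median of 0 and a highest value of 5029.8 TPM, a difference of 5.91. Eno2, the neuronal enolase, was 509.5 TPM in C131, 689 in C133, 2.78 in N8 and 10.4 in N9, a difference of 4.98. Aldoa (aldolase A) was 6660.1 TPM in C133, 3108 in N9 and 540.3 in N8 but 1.83 in C131, a difference of 4.85. Its median was 9.94 TPM in cycling C libraries but 1540 TPM in the C libraries on neither side. The median of the list was 0.75 and turned to -0.11 without C133. Of 43 genes of oxidative phosphorylation 2 were higher (Ndufa1 and Uqcrq) and 2 lower (Cox7a2 and Atp5e), near the background of 4.08% and 2.19%. None of the 4 held in every omission: Ndufa1 at 3.58 became 2.67 without C133 and 2.75 without N8, Uqcrq at 3.39 became 2.74 without C131, Cox7a2 at -3.27 became -1.33 without N8 and -2.29 without N9, and Atp5e at -3.25 became -1.51 without N8 or N9. The median of the oxidative phosphorylation list was 1.04, with 30 of 43 genes positive, and became 0.30 without C133. It kept its sign under every setting tried, from 0.08 to 2.06. Of 48 ribosomal protein genes and 22 lipid genes 0 were called in either direction, with medians of 0.63 and -0.69.

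Signalling lists changed little beyond Id2, where 4.08% of all genes compared were higher and 2.19% lower. Of 12 BMP and Id genes Id2 and Smad4 were higher and 0 lower, with a list median of -0.77. Id2, an inhibitor of bHLH factors, was 1374 TPM in C131, 153 in C133, 1956 in N8 and 2913 in N9, against a cycling C median of 4.25 and a highest value of 2390.2, and 5 cycling C libraries lay above C133. Its difference was 6.45, whereas Id1 was listed at 0 in all 4 libraries with a difference of -1.70. Just below the neuronal threshold, log2 values of Id2 were 8.68 to 11.98 in N13, C123, N19 and N18, 4.48 in C103 and 1.66 in C138. Smad4, the shared mediator of BMP and TGF-beta signals, had a difference of 3.16, which was under 3 without C131 (2.37), C133 (2.78) or N8 (2.58) and was 4.89 without N9. Of 16 Notch, 17 Wnt, 9 growth factor receptor and 15 apoptosis genes 0 were called, with medians of -0.31, -0.16, 0.14 and 0.81. The member furthest from 0 was Notch2 at -2.13, Fzd3 at 2.86, Ntrk2 at -0.92 and Bcl2l1 at 2.55, in that order of lists. Of 16 immediate early and heat shock genes only Hspa5 (the chaperone BiP) was called, at 3.20, which became 2.99 without N9. Of 11 long noncoding RNAs Meg3 and Snhg11 were higher: Meg3 was 0.34 TPM in C131, 1369 in C133, 15.7 in N8 and 1279 in N9, and Snhg11 was 13.7 TPM in C131, 1101 in C133, 15.9 in N8 and 2970.3 in N9. Both were thus high in C133 and N9, and without these libraries 0 of 11 passed.

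Outside every list, the 10 highest genes seen in most neuronal-side libraries were Pcp4, Mllt11, Pdhb, Atp6v1g2, Kcnip2, Gng10, 2310009A05Rik, 1500011B03Rik, Ctsl and Rtn1, with differences of 6.16 to 7.27. Mllt11, which is expressed in developing neurons, was 1513 TPM in C131, 1069.6 in C133, 1309.7 in N8 and 856 in N9, against a cycling C median of 1.84 and a highest value of 502, without overlap. Just below the neuronal threshold, its log2 value was 9.50 in N19 and 8.19 in C123, and 1.17 to 2.65 in N13, C138, N18 and C103. Pdhb, a subunit of pyruvate dehydrogenase, was 609 TPM in C131, 785 in C133, 1123 in N8 and 1529 in N9, against a cycling C median of 1.72, with 2 cycling C libraries above C131. Rtn1, a neuronal reticulon, was 945 TPM in C131, 1669.6 in C133, 2212 in N8 and 747 in N9, against a cycling C median of 3.24. These 3 and Gng10, a G protein subunit at 488 to 966 TPM, were even across the 4 libraries, with SDs of 0.36 to 0.72 on the log2 scale. Pcp4 (a calmodulin regulator) was 449.7 TPM in C131, 6.36 in C133, 1913 in N8 and 2612 in N9, and Kcnip2 (a potassium channel partner) and Atp6v1g2 (a vacuolar proton pump subunit) were listed at 0 in C131. The 10 lowest were 1190002F15Rik, Prdx4, Txn1, 2810417H13Rik, Gm15772, Banf1, Btf3l4, 2700094K13Rik, Lsm3 and Dnajc15, with differences of -8.43 to -5.56. Prdx4, a peroxiredoxin of the endoplasmic reticulum, and Lsm3, of the U6 snRNP, were listed at 0 in all 4 libraries, against cycling C medians of 609.8 and 363 TPM. Txn1 (thioredoxin) was 6.64 TPM in N9 and 0 in the other 3, against 464. In the C libraries on neither side the medians of Prdx4 and Lsm3 were 0 and that of Txn1 was 16.6 TPM.

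At a level of 100 TPM, 222 genes (1.85%) were reached by all 4 neuronal-side libraries, and 33 of these were reached by fewer than 12 of the 23 cycling C libraries. Only Tubb4a, Snap25 and Rab3a were reached by at most 4 of them, namely by 2, 1 and 0. What the 4 libraries shared at high level was thus mostly shared with the cycling side too. Over the 11989 genes, Pearson's r of log2(TPM + 1) was 0.31 to 0.39 between the 4 libraries, lowest for C131 with N9 and highest for C131 with N8. Between cycling C libraries it was 0.21 to 0.53 with a median of 0.38 over 253 pairs. Each neuronal-side library had a median r with the cycling C libraries of 0.37 for C131, 0.33 for C133, 0.34 for N8 and 0.28 for N9. These correlations are across genes, which are not independent, and share the many values at 0. The values between the 4 libraries lay inside the range of the cycling C pairs, and the median r of C131 with the cycling side lay inside its own range with the other 3. For C133, N8 and N9 that median lay below the lowest r with another neuronal-side library. It was 0.331 against 0.338 for C133, 0.338 against 0.340 for N8 and 0.284 against 0.308 for N9. The highest r with a cycling C library was 0.389 for C133, 0.382 for N8 and 0.326 for N9. Each of these exceeded that lowest neuronal-side r, so the ranges overlap and no greater likeness within the side is shown.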

How the data were processed

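Total RNA of single cells was turned into libraries by NuGEN's Ultralow V2 protocol, as the labels' protocols record. The authors deposited 1 table of TPM (transcripts scaled to a common total, corrected for length) with 23307 genes. RSEM and the mouse build mm9 are named in the submitters' processing notes; its version, the aligner and the annotation are not stated there. RSEM divides reads shared by similar genes, which makes single tubulins, ribosomal proteins and predicted genes uncertain. Sequencing depth cannot be read from TPM, so counting errors are unknown. An exact 0, found for 78.5% of all values, can be a failed estimate: Gapdh was listed at 0 in 2 libraries, none of them compared here.

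There are 173 samples in the labels and 172 columns in the table. One column, C27, could belong to either of 2 samples by title and was used as a C library of no known number; 0 columns were left out. Values were analysed as log2(TPM + 1) with Python 3.11.15, numpy 2.4.6, pandas 2.3.3 and matplotlib 3.10.9. A gene was kept if 5% or more of all libraries had it at 1 TPM or above, which held for 12007, or 11989 without the genes of the selection rule that passed. The neuronal minus cycling C difference of means was called at 3 or more in size. The scripts recovered known differences in simulated data, which is a check of the code alone. How often a call is wrong in these libraries was not tested.

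The members and the 38 gene lists (24 of processes, 14 of cell types) were chosen with earlier results of these data known, so no list is independent evidence. Of their genes 3 were not used, having no row under the listed symbol. Named genes are the genes of the selection rule, the 3 members furthest from 0 in each process list and 1 in each list of cell types, the 10 genes at either end outside the lists, and 15 set genes such as Sox11, Stmn1 and Slc12a5. Other names, among them those of list members in counts, were picked with their values in view. A few genes taken by this rule are not reported here. The alternatives tried were other pseudocounts, filters, a size factor per library, other averages, other thresholds of the rule, C or N libraries alone, and the omission of libraries. Omitting C133 and N9 together, omitting C27, and asking for a G2 and mitosis mean of at least 3 on the cycling side were added after seeing the data. Promoters are those of RefSeq for GRCm38.p6, matched by symbol or synonym; that build is not mm9, so no coordinates were taken from one to the other.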

Additional observations from a re-analysis of the deposited data

Results flagged for a closer look

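Among 40 measures checked in the 4 neuronal-gene-high libraries, 6 had 1 library whose gap to the nearest of the others took up more of the range than Dixon's 95% limit allows. Chance flags about 1 in 20 such groups. The mature neuron list mean was 6.26 in C133, against 2.90 to 3.39 in the other 3. The mean of the Cajal-Retzius list was 5.25 in N9, against 0 to 0.633 in the others. In the immediate early and heat shock list N9 had a mean of 5.51, against 1.61 to 2.24, with Fos (3465 TPM), Dusp1 (2524 TPM) and Egr1 (1227 TPM), named after their values were seen, high in it and at most 8.19, 0 and 0.49 TPM in the other 3. The oligodendrocyte list mean of N9 was 1.30, against 0.0918 to 0.243, and its ependymal mean was 0.559, against 0 in all 3 others. With all 3 others at 0 any ependymal value above 0 meets this limit, so the chance rate does not apply to it. The mature granule neuron list mean of N8 was 1.12, against 0 to 0.165. The oligodendrocyte, ependymal and granule neuron means are low and rest on few markers each: in N9, 5 of 10 oligodendrocyte and 4 of 5 ependymal markers were listed at 0, and in N8, 4 of 8 granule neuron markers were.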

How the results depend on the processing

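Of the genes compared, 4.08% were higher, 2.19% lower, 0.0417% higher without overlap and 0.00834% lower without overlap. With 1 neuronal-side library left out these shares ran from 3.85% to 6.01%, 2.24% to 3.19%, 0.0918% to 0.242% and 0.00834% to 0.0167%. No paired analysis was possible because the labels give no animal or batch number, so any sharing between libraries is unknown, and no test was run. A pseudocount of 0.1 gave 9.43% higher and 5.12% lower, one of 10 gave 0.726% and 0.492%, and the log2 of mean TPM gave 7.09% and 23.4% with the median of all genes moved to -0.46. The median of log2 values gave 8% higher. Asking for 1 TPM in 20% of the libraries compared left 2 genes (0.0292%) higher without overlap. A neuronal threshold of 3 (12 libraries) gave 0.726% and 1.13%, with 0 genes without overlap either way, and one of 5 (C133 and N8) gave 9.98% higher, with 1% higher and 0.025% lower without overlap. A cycling threshold of 2 gave 0.00834% and 0% without overlap, and one of 5 gave 0.0918% and 0.1%. N libraries alone on the neuronal side gave 7.77% and 4.5%, with 1.34% and 0.05% without overlap, and C libraries alone gave 9.38% higher, with 0.475% and 0.0417%. Without libraries high in another cell type list, 3.51% were lower, with 0.167% and 0.025% without overlap. Without C133 and N9 the shares were 6.48%, 3.82%, 0.484% and 0.0167%. With a G2 and mitosis mean of at least 3 on the cycling side, 3.3% were lower, with 0.0918% and 0.108% without overlap. The cause of these moves was not tested, except that fewer libraries on a side leave fewer values that can overlap.

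Of 66 named genes past the threshold, 4 changed sign under a setting: with a neuronal threshold of 5, Tbr1 (-0.0359) and Dcc (-0.994), and with C libraries alone, Cox7a2 (1.11) and Reln (-0.0878). More of them lost the call. Only 39 of the 66 stayed past the threshold with a neuronal threshold of 3, and 46 with a pseudocount of 10. The log2 of mean TPM kept 47 and C libraries alone kept 54. With 1 neuronal-side library left out, 55 to 62 stayed. The medians of the synaptic vesicle, receptor, tubulin, S phase, mitosis, stem cell and mature neuron lists kept their sign in all 23 settings. So did those of the growth cone, chromatin, ribosome, oxidative phosphorylation, splicing, long noncoding RNA and intermediate progenitor lists. A kept sign thus singles out no list. The choice of the cycling side favours that of S phase and mitosis. The choice of the neuronal side by 13 neuronal genes likewise favours that of the neuronal lists. The 23 include the main setting and 1 that left its libraries unchanged. TPM without depth leaves the detection limit of each library unknown.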

Other observations

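Within the C class the number in a library's title followed the eCFP row: with the C libraries ordered by number (C27 included by its column name), eCFP TPM went down at every step. The numbers of C131 and C133 are therefore another reading of their eCFP rank.

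Among the libraries with Cajal-Retzius genes, N9, N13, N18 and N19, the neural stem cell list means were 2.21, 2.02, 2.12 and 2.02, and Tubb3 was 1265 TPM in N9 but 0, 49.3 and 38.2 TPM in N13, N18 and N19. All 4 are N libraries, and 0 C libraries reached a mean of 4 for that list.

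Marker lists not described above gave 0 genes past the threshold in either direction, namely 3 measured genes of mature granule neurons, 4 of inhibitory neurons, 8 of oligodendrocyte precursors, 10 of oligodendrocytes, 3 of endothelial cells, 5 of mural cells, 5 of microglia, 4 of erythroid cells and 2 of ependymal cells. Of 4 measured Cajal-Retzius genes only Reln passed, at 3.46, and it was at 1.18 without N9. Of 12 mature neuron genes 4 passed as higher (Snap25, Syt1, Gria2 and Eno2) and 0 as lower, with a median of 2.02 that was 0.81 without C133. The shares over all genes compared were 4.08% higher and 2.19% lower.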
